A study of Mus musculus with 6 samples.

Results

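The genes described here are 50 cell cycle genes among the 32285 genes counted by single-cell RNA-Seq (scRNA-Seq) in CD45+ cells sorted from B16-F10 mouse melanomas. They were taken by gene symbol from a given list: 21 genes of S phase (Mcm2, Mcm3, Mcm4, Mcm5, Mcm6, Mcm7, Cdc6, Cdt1, Gins2, Clspn, Tyms, Tk1, Rrm1, Rrm2, Pcna, Pclaf, Uhrf1, Hells, E2f1, Ccne1 and Ccne2), 26 genes of G2 and mitosis (Ccna2, Ccnb1, Ccnb2, Cdk1, Plk1, Aurka, Aurkb, Bub1, Bub1b, Cdc20, Ube2c, Cdca3, Birc5, Cdca8, Cenpa, Cenpe, Cenpf, Tpx2, Kif11, Kif20a, Kif23, Nusap1, Prc1, Hmmr, Mki67 and Top2a), and Ccnd2, Ccnd3 and Stmn1, which belong to neither. All 6 samples came from female C57BL/6 mice aged 6 to 10 weeks that carried B16-F10 tumors and received αPD-1, an antibody that blocks the checkpoint receptor PD-1, at 150 μg and 3 times a week from day 7. In 3 samples αPD-1 was the only drug, and in 3 samples (αPD-1 + corin) the mice also received 200 μg of corin, an inhibitor of the deacetylase and demethylase enzymes of the CoREST corepressor complex, from day 6. With 10 mice in an arm and no label that ties a sample to its mice, every p-value here measures only the spread between these samples, which may be technical. B16-F10 is a transplanted mouse melanoma line, and the study had no untreated tumors in these data, so the comparison is of corin added to αPD-1 against αPD-1 alone.

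A cell that divides first licenses and copies its DNA in S phase and then, in G2 and mitosis, condenses and separates its chromosomes. The genes of S phase are switched on together by E2F transcription factors, and those of G2 and mitosis later by the MuvB complex with B-MYB and FOXM1, which acts at CHR elements, and by NF-Y, which binds CCAAT boxes. In resting cells the DREAM complex, which also holds MuvB, represses them. Resting T cells carry little of either set, while T cells activated by antigen, and tumor cells, carry much of both, so that the levels of these genes are widely used to read how many cells of a population are cycling. D-type cyclins respond to growth signals before S phase and are present in resting lymphocytes as well.

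The promoter sequences show how the S and the G2/M genes differ in a feature that no measured value enters. RefSeq promoter windows (GRCm38.p6, 250 bases before to 50 bases after the start) were matched by symbol for 41 of the 50 genes, in 45 windows. No window was matched for Aurkb, Ccna2, Ccnd2, Ccne2, Gins2, Kif20a, Mcm4, Stmn1 and Tpx2. The letters of the CHR core (TTTGAA, either strand) were present in 18 of 23 windows of G2/M genes (78.3%), in 1 of 20 windows of S genes (5.0%) and in 17.9% of all 32851 windows. A CHR core within 50 bases of the start was found in 17 of the 23 G2/M windows, in 0 of the 20 S windows and in 4.94% of all windows. CCAAT, the box bound by NF-Y, was present on either strand in 21 of 23 G2/M windows (91.3%), in 13 of 20 S windows (65.0%) and in 37.4% of all windows, and both motifs occurred together in 18 of 23, in 1 of 20 and in 6.95%. The reverse held for E2F cores on either strand (the letters TTCCCGC, with the variant TTCGCGC, the variant TTGCCGC and the variant TTGGCGC), found in 14 of 20 S windows (70.0%), 4 of 23 G2/M windows (17.4%) and 9.57% of all windows. The 2 windows of Ccnd3 held neither a CHR core nor an E2F core. The 140 bases before the start are printed 5′ to 3′ in the direction of transcription for 4 G2/M genes that carry both motifs and 3 S genes that carry an E2F core, with the letters of the searched motifs in capitals.
Cdk1 (chr10:69352913-69353052, minus strand): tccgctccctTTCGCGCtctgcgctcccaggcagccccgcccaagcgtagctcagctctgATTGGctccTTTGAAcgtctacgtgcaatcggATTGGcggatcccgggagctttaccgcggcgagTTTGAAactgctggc
Ube2c (chr2:164769789-164769928, plus strand): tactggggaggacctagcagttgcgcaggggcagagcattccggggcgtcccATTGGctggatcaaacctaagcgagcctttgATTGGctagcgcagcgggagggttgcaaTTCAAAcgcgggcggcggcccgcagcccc
Kif11 (chr19:37376242-37376381, plus strand): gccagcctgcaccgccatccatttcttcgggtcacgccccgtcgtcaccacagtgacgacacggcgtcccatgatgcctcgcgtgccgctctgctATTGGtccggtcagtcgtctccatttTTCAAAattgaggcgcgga
Top2a (chr11:99024190-99024329, minus strand): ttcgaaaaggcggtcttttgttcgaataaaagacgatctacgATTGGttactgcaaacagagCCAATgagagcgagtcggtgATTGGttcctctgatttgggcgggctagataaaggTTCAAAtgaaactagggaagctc
Rrm1 (chr7:102441555-102441694, plus strand): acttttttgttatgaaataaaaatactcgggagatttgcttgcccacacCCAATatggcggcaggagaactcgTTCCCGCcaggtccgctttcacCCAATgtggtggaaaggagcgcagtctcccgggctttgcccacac
Mcm6 (chr1:128359706-128359845, minus strand): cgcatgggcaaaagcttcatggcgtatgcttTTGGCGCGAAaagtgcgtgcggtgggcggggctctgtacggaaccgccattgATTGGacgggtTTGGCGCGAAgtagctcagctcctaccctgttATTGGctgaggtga
Hells (chr19:38930850-38930989, plus strand): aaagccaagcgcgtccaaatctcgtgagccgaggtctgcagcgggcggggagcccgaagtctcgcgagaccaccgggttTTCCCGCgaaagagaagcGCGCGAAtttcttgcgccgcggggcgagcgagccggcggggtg

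In Kif11 the CHR core begins 19 bases before the start and the CCAAT box 45 bases before it, and in Ube2c these distances are 29 and 57 bases. Mcm6 carries E2F cores that overlap, in 2 pairs, beginning 109 and 106 and then 46 and 43 bases before the start. Hells carries 2 E2F cores and no CCAAT box. A match of letters is a description of the sequence and does not show that a factor binds there.

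**Figure D1:**
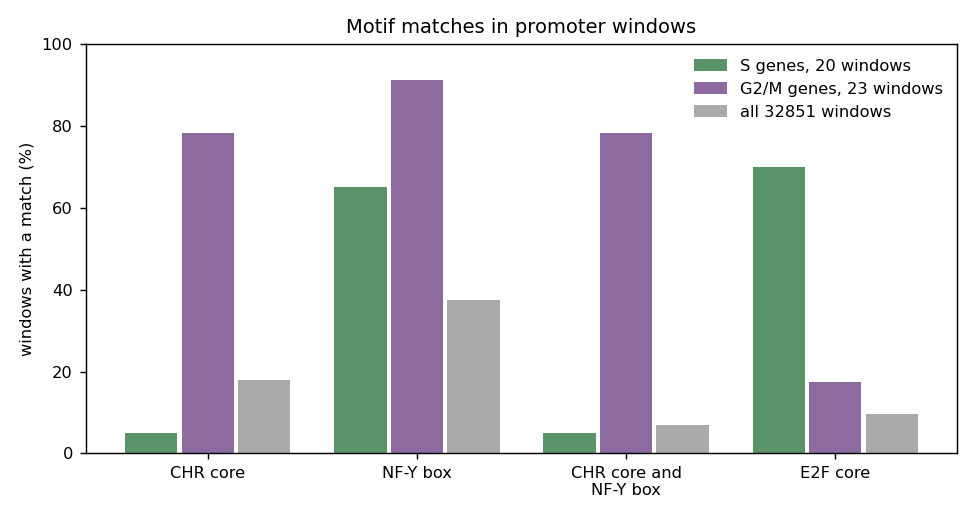
Share of promoter windows (percent, vertical axis) that hold each motif on either strand, for windows of S genes (green), of G2/M genes (purple) and for all windows (grey); the NF-Y box is CCAAT. CHR cores were in 78.3% of G2/M and 5.0% of S windows, and E2F cores in 17.4% and 70.0%.

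The samples held 52281422 to 84276739 UMIs (counts of distinct RNA molecules) each, in 52899 barcodes, of which 28865 cells passed limits on genes, mitochondrial share and doublets. Clusters were named from markers, and cells of T and NK clusters were split further by UMIs: CD8 T by Cd8a or Cd8b1, CD4 T by Cd4, Foxp3+ T by Foxp3, and NK by Ncr1 or Klrb1c with none of these genes and none of Cd3e, Cd3d, Cd3g or Trac. The 10 lineages described here held 2714 CD8 T, 370 CD4 T, 222 Foxp3+ T, 359 NK, 2988 B, 9233 macrophage, 1829 monocyte, 1710 DC, 1887 melanoma and 989 fibroblast cells, and 1824 cells of T and NK clusters met no such rule and were left out. The following genes are among the markers that named the clusters and are no independent check: Cd3e stood at 648 CPM (UMI counts relative to the library total) in CD8 T cells against 23.3 in B cells, C1qa at 1996 in macrophages against 130 in monocytes, and Pmel at 2241 in melanoma cells against 54.4 in fibroblasts. Melanoma cells and fibroblasts, which a CD45 sort should remove, carried Ptprc, the CD45 gene, at 16.0 and 37.6 CPM against 1234 in CD8 T cells. The cells of a lineage were unevenly spread over the samples: with αPD-1 there were 406, 462 and 380 CD8 T cells, against 102, 191 and 1173 with corin added, and for B cells 876, 769 and 1221 against 57, 49 and 16. Any 2 samples shared 10 to 32 cell barcodes.

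UMIs were summed per sample and lineage, scaled by TMM factors within each lineage and tested gene by gene with edgeR's quasi-likelihood test, with Benjamini-Hochberg adjustment over all genes tested in that lineage and a threshold of 0.05. Summed levels over the 21 S or the 26 G2/M genes are descriptions and carry no test, and they do not tell more positive cells from more RNA per cell. The lineages differed widely in these sums. Averaged over the αPD-1 samples, the G2/M genes summed to 2624 CPM ± 327 (SD, n = 3) in Foxp3+ T, 1532 ± 364 in melanoma, 1474 ± 235 in CD8 T, 1132 ± 809 in CD4 T, 659 ± 90.9 in macrophage, 556 ± 40.2 in DC, 390.3 ± 278 in fibroblast, 358 ± 179.97 in NK, 309.5 ± 41.3 in B and 145 ± 31.2 in monocyte cells. In this order, neighbours from melanoma cells to macrophages and from DC to B cells lay within the larger SD of the pair. The order holds for cells with at most 4000 genes. Without that limit, 74.2% of melanoma, 31.8% of fibroblast, 8.83% of DC, 6.06% of CD8 T and 3.1% of Foxp3+ T cells had more. The place of melanoma cells and fibroblasts therefore rests on the cells that remained. For the S genes Foxp3+ T cells were again highest, at 1924 ± 5.45 CPM, and monocytes and fibroblasts lowest, at 271 ± 23.1 and 227 ± 28.8 CPM. Cells rather than UMIs were also counted, with each cell thinned to 1000 UMIs and cells with fewer left out. Averaged over the αPD-1 samples, 32.0% ± 1.43 (SD, n = 3) of melanoma, 21.04% ± 7.64 of Foxp3+ T and 16.1% ± 3.23 of CD8 T cells carried UMIs of at least 2 different G2/M genes, against 2.20% ± 0.659 of B cells and 1.57% ± 0.784 of monocytes, which serve as the low reference. Without thinning these shares were 53.5%, 41.3%, 35.6%, 8.83% and 8.24%. Median depth was 3466.5 UMIs per cell with αPD-1 and 4642 with αPD-1 + corin in CD8 T cells, and 1834 and 1441 in B cells. Over all 6 samples and without thinning, 87.2% of G2/M-positive CD8 T cells also carried at least 2 S genes, as did 85.4% of melanoma cells, 48.6% of B cells and 39.8% of monocytes. In the other direction, at least 2 G2/M genes were carried by 63.4% of S-positive CD8 T cells, 70.7% of melanoma cells, 19.4% of B cells and 20.1% of monocytes.

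**Figure D2:**
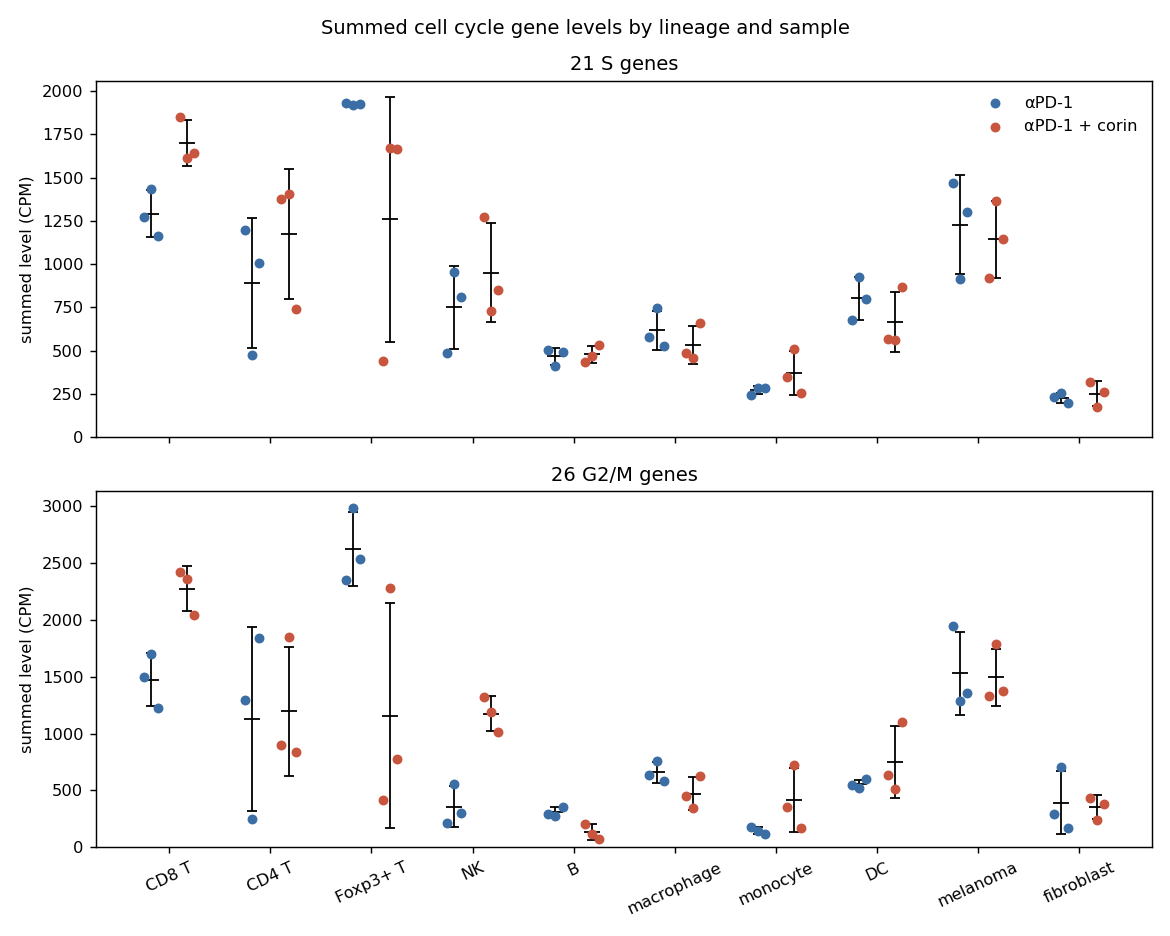
Summed level (TMM-scaled CPM, vertical axes) of the 21 S genes (top) and the 26 G2/M genes (bottom) in each lineage, with 1 point per sample (blue αPD-1, red αPD-1 + corin) and bars for mean ± SD, n = 3. In CD8 T and NK cells every αPD-1 + corin sample lay above every αPD-1 sample for the G2/M genes, and in Foxp3+ T and B cells every one lay below.

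In CD8 T cells most S and G2/M genes had higher mean levels with corin, and the D-type cyclins had lower ones. All 50 genes could be tested, 47 had a positive log2 fold change and their median was 0.48, beside 0.01 over all 9652 genes tested. After adjustment 8 rose, beside 0.943% of all genes tested that rose, and 2 fell, beside 3.56% of all genes that fell.

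The S genes of the replication origin encode the helicase that opens DNA for copying and the factors that load it. Mcm3, a subunit of the MCM helicase ring, stood at 70.0, 88.4 and 76.8 CPM with αPD-1 and at 115, 123 and 119 CPM with αPD-1 + corin. The groups did not overlap, and Mcm3 rose by 0.60 ± 0.14 (log2, SE) at an edgeR adjusted p of 0.0286. The other ring subunits that were most abundant did not pass: Mcm6 stood at 98.6, 123 and 85.5 against 139, 121 and 123 CPM (0.29 ± 0.15) and Mcm4 at 82.9, 94.8 and 79.9 against 115, 89.1 and 92.4 CPM (0.15 ± 0.14). Both overlapped between the groups. Of the genes that supply nucleotides, Rrm1, the large subunit of ribonucleotide reductase, stood at 67.1, 76.0 and 74.3 against 120.2, 103 and 106 CPM. It rose by 0.57 ± 0.13 with no overlap (edgeR adjusted p = 0.0321). Of the genes of the replication fork, Pclaf, which binds the sliding clamp PCNA, stood at 124, 139 and 104 against 229.6, 217 and 184 CPM and rose by 0.75 ± 0.14 (edgeR adjusted p = 0.0127), again with every αPD-1 + corin sample above every αPD-1 sample. Pcna itself, the clamp, stood at 256, 264 and 228 against 257, 260.3 and 275 CPM, a log2 fold change of 0.08 ± 0.12, so that the S gene with the most UMIs in these cells did not pass. In all, 3 of 21 S genes rose, beside 0.943% of all genes tested, and 20 of 21 had a positive fold change. In 8 of the 21 every αPD-1 + corin sample was highest, beside 12.3% of all genes tested. Ccne2, an E-type cyclin, had the 1 negative fold change (−0.30 ± 0.27).

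The G2/M genes had larger fold changes, with a median log2 fold change of 0.59 against 0.36 for the S genes. Cdk1, the kinase that drives entry into mitosis, stood at 35.6, 41.6 and 32.8 CPM with αPD-1 and at 76.5, 65.5 and 62.4 CPM with αPD-1 + corin. It rose by 0.83 ± 0.16 (edgeR adjusted p = 0.0118), while its partners Ccna2 and Ccnb1, cyclins of S phase and mitosis, had fold changes of 0.71 ± 0.20 and 0.67 ± 0.22 that did not pass. Ube2c, the ubiquitin-conjugating enzyme of the anaphase-promoting complex, stood at 148, 159 and 118 against 240.5, 213 and 207 CPM and rose by 0.61 ± 0.14 (edgeR adjusted p = 0.0286). Among centromere genes, Cenpa, the histone variant that marks centromeres, stood at 109.7, 119.6 and 99.7 against 159, 222 and 153 CPM and rose by 0.70 ± 0.16 (edgeR adjusted p = 0.0307). Cdca8, borealin of the chromosomal passenger complex, stood at 53.7, 66.4 and 46.5 against 115, 108 and 89.7 CPM and rose by 0.85 ± 0.17 (edgeR adjusted p = 0.0143). Its partner Birc5, survivin, stood at 95.7, 84.01 and 50.2 against 131, 130.1 and 107 CPM, a fold change of 0.64 ± 0.21 that did not pass. Kif11, the kinesin that pushes spindle poles apart, stood at 52.5, 59.6 and 52.7 against 84.7, 86.8 and 77.4 CPM and rose by 0.57 ± 0.14 (edgeR adjusted p = 0.0377). In each of these genes every αPD-1 + corin sample lay above every αPD-1 sample.

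The 2 G2/M genes with the most UMIs in CD8 T cells narrowly missed the threshold. Mki67, the chromosome surfactant used as a proliferation marker, stood at 198, 225 and 158 against 262, 286 and 260.3 CPM, a fold change of 0.47 ± 0.14 (edgeR adjusted p = 0.0857). Top2a, the topoisomerase that untangles sister DNA, stood at 179, 238 and 182 against 292, 292 and 279 CPM, a fold change of 0.52 ± 0.14 (edgeR adjusted p = 0.0516). Neither overlapped between the groups. In all, 5 of 26 G2/M genes rose, beside 0.943% of all genes tested, and all 26 had a positive fold change. In 19 of them every αPD-1 + corin sample was highest, beside 12.3% of all genes tested. Stmn1, a tubulin-binding protein of dividing cells, stood at 169, 193 and 147 against 259.6, 245 and 215 CPM (0.48 ± 0.14, not past the threshold). The 8 calls that rose depended on single samples: 0 of them passed without αPD-1 sample 1 or without αPD-1 sample 3 and 2 without the second αPD-1 + corin sample, while Ccnd2 and Ccnd3 passed in each case. Of all genes tested, 1.42%, 1.62% and 2.42% passed in these settings in either direction. Mcm3, Rrm1 and Kif11 did not pass with DESeq2, by which 6 genes rose, nor with the replicate number as a block. Without the upper limit of 4000 genes per cell 1 gene passed in all, and with LogNormalize before clustering 2 did, beside 1.26% and 1.87% of all genes tested.

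**Figure D3:**
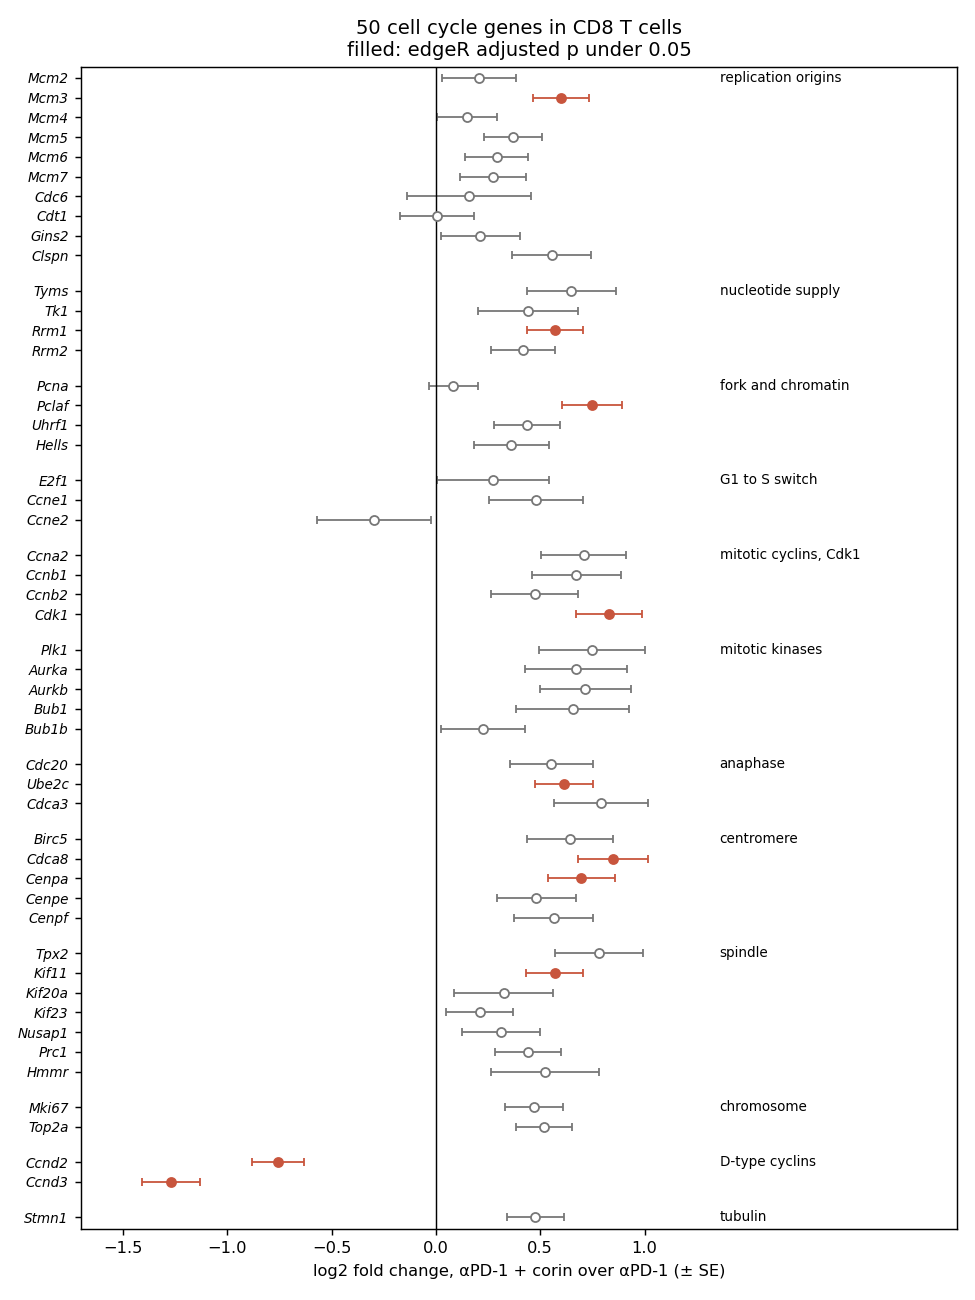
Log2 fold change of each of the 50 genes in CD8 T cells, αPD-1 + corin over αPD-1 (horizontal axis), with its SE from edgeR, grouped by role; filled red points passed an adjusted p of 0.05. The 8 genes that rose lie between 0.57 and 0.85, and Ccnd2 and Ccnd3 lie at −0.76 and −1.27.

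Summed over CD8 T cells, the G2/M genes stood at 1496, 1697 and 1229 CPM with αPD-1 and at 2421, 2358 and 2048 CPM with αPD-1 + corin, a log2 ratio of means of 0.63. The S genes stood at 1274, 1434 and 1165 against 1853, 1611 and 1641 CPM, a log2 ratio of 0.40. Neither sum overlapped between the groups. The number of positive cells moved the same way: after thinning, 17.8%, 18.1% and 12.3% of CD8 T cells carried at least 2 G2/M genes with αPD-1 and 25.7%, 34.0% and 28.2% with αPD-1 + corin, a mean difference of 13.3 percentage points. Without thinning the shares were 34.5%, 40.3% and 32.1% against 43.1%, 57.6% and 52.9%.

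The make-up of the CD8 T cells moved with these genes. The share of CD8 T cells with a UMI of Ccr7 or Lef1, genes of naive and central memory T cells, was 56.7%, 48.3% and 48.2% with αPD-1 and 25.5%, 24.6% and 16.8% with αPD-1 + corin. All 6 genes of a naive T cell list (Lef1, Tcf7, Ccr7, Klf2, S1pr1 and Il7r) were tested and 5 fell, all but Ccr7, and their summed level was 906 to 1151 CPM with αPD-1 and 279 to 394 CPM with αPD-1 + corin. When CD8 T cells with a Ccr7 or Lef1 UMI were left out, a split chosen after seeing the data, 0 of the 49 genes that could be tested passed with edgeR and 10 had an unadjusted p under 0.05, beside 0.0971% and 7.6% of all genes tested. The G2/M log2 ratio was then 0.37, and the groups overlapped. Within the cells with such a UMI the G2/M genes stood at 1398, 1052 and 714 against 1804, 2372 and 1646 CPM (without TMM scaling here and in the clusters below), without overlap. Within the cells without one they stood at 1688, 2208 and 1699 against 2568, 2359 and 2053, and the groups overlapped. The split also moved with depth: the median was 2634.5, 3764 and 2499 UMIs in the cells with such a UMI and 3527, 4867 and 3602 in the others with αPD-1, against 2352, 7025 and 5430.0 and 3139.5, 6105 and 4392 with αPD-1 + corin, and the part of depth in the result was not tested. The cells with such a UMI carried G2/M genes well above the level of B cells, so they are not called naive here.

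The clusters that hold CD8 T cells also differed in their shares, less evenly over the samples. The cluster led by Xcl1, Dapl1 and Tcf7 held 49.01%, 40.04% and 38.9% of CD8 T cells with αPD-1 and 40.2%, 18.8% and 10.5% with αPD-1 + corin, and the groups overlapped. The cluster led by Gzmb, Prf1 and Gzmc held 19.5%, 35.7% and 25.5% against 24.5%, 46.6% and 58.2%, again with overlap. The cluster led by Nkg7, Gzmb and Ccl5 held 24.1%, 19.9% and 28.9% against 35.3%, 34.03% and 31.03%, without overlap. The G2/M genes stood at 655, 623 and 974 against 2163, 1172 and 1359 CPM within the Xcl1, Dapl1 and Tcf7 cluster, and at 1432, 1263 and 1079 against 2273, 1865 and 1663 within the Nkg7, Gzmb and Ccl5 cluster, both without overlap. Within the Gzmb, Prf1 and Gzmc cluster, which had the highest levels, they stood at 2833, 2578 and 1749.96 against 3022, 3037 and 2243 and overlapped. Summed C1q genes, which macrophages express, stood at 783, 697 and 523 against 1090.4, 804 and 725 CPM in CD8 T cells and overlapped. Genes of dissociation stress (Fos, Jun, heat shock genes and others, 9 in all) summed to 5756 to 7357 against 2991 to 4955 CPM, B cell markers to 189 to 509.8 against 16.2 to 84.7 CPM, and neutrophil markers to 10.8 to 21.7 against 52.3 to 309 CPM. The 9 NK markers, of which Prf1, Gzma and Eomes are also expressed by activated CD8 T cells, summed to 819, 855 and 878 against 905, 1209 and 1111 CPM without overlap, and 1 of the 6 tested rose. The part of cell make-up, stress and free RNA in the cell cycle result was not tested beyond these splits.

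**Figure D4:**
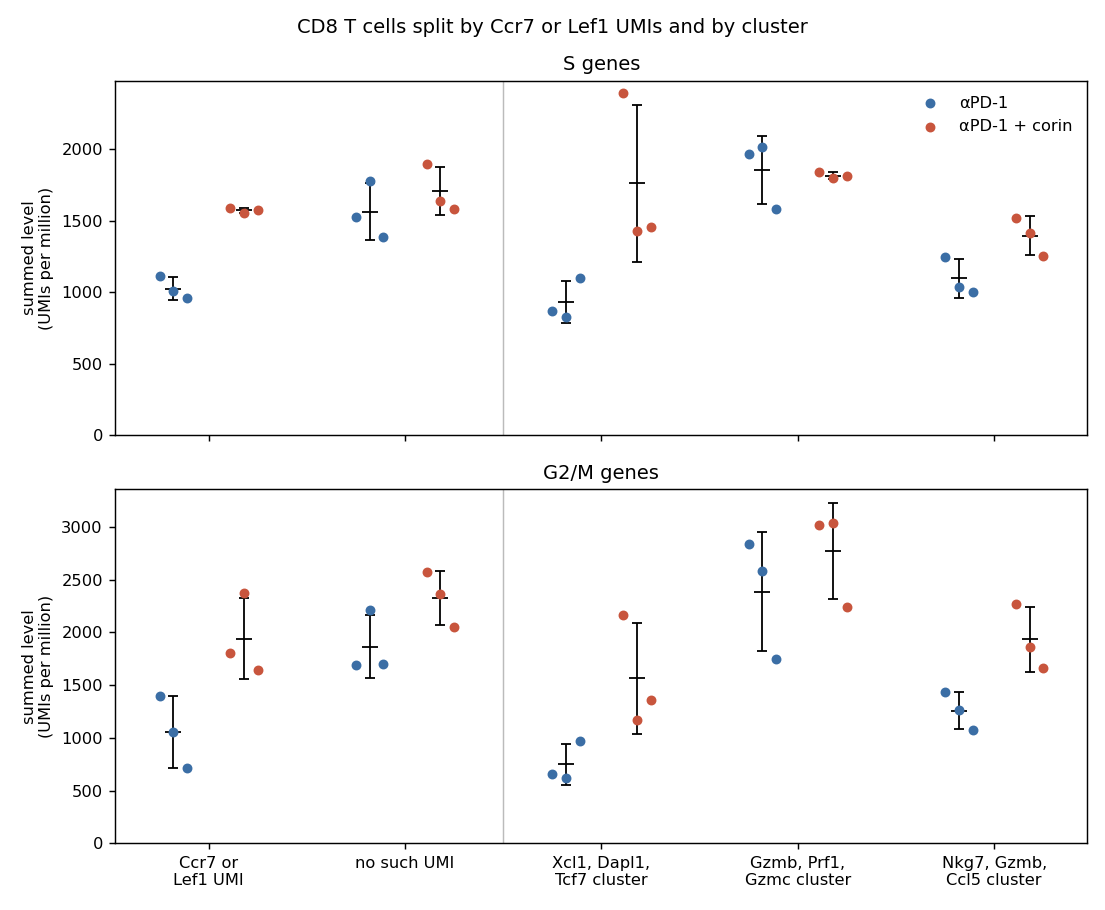
Summed S (top) and G2/M (bottom) genes in unscaled CPM (vertical axes) in CD8 T cells with or without a UMI of Ccr7 or Lef1 (left of the grey line) and within each of 3 clusters (right), with 1 point per sample and bars for mean ± SD, n = 3. The G2/M groups separate in cells with such a UMI (714 to 1398 against 1646 to 2372) and overlap in cells without one.

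Ccnd3, a D-type cyclin of lymphocytes, passed the test in 4 lineages, more than any other of the 50 genes, and its direction was opposite to that of the S and G2/M genes of CD8 T cells. In CD8 T cells it stood at 292, 289.6 and 299 CPM with αPD-1 and at 148, 101 and 126 CPM with αPD-1 + corin, and it fell by 1.27 ± 0.14 on the log2 scale (edgeR adjusted p = 0.000426). In CD4 T cells it stood at 501, 661 and 772 against 179, 166 and 176 CPM and fell by 1.89 ± 0.24 (edgeR adjusted p = 0.000133). In Foxp3+ T cells it stood at 214, 307 and 226 against 116, 65.4 and 118 CPM and fell by 1.56 ± 0.30 (edgeR adjusted p = 0.0415). In B cells it stood at 389, 452 and 572 against 135, 145 and 72.4 CPM and fell by 1.91 ± 0.29 (edgeR adjusted p = 0.000418). The groups did not overlap in any of these 4 lineages. In Foxp3+ T cells Ccnd3 did not pass with DESeq2, nor without any 1 of the 3 αPD-1 samples or αPD-1 + corin sample 2 or 3.

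Ccnd3 did not pass the threshold in the other 6 lineages. In NK cells it stood at 345, 445 and 487 against 193, 271 and 239.7 CPM (−0.88 ± 0.24, edgeR adjusted p = 0.0956) and in DC at 272, 265 and 272 against 154, 166 and 205 CPM (−0.63 ± 0.13, edgeR adjusted p = 0.0973), both without overlap. Macrophages were at 74.5, 79.4 and 78.8 against 65.6, 58.1 and 71.5 CPM (−0.25 ± 0.13), monocytes at 189, 245 and 227 against 155, 131 and 219 CPM (−0.37 ± 0.18), melanoma cells at 65.1, 106 and 88.3 against 70.1, 55.6 and 74.0 CPM (−0.34 ± 0.22) and fibroblasts at 76.4, 211 and 71.0 against 72.7, 55.2 and 78.1 CPM (−0.77 ± 0.38). The fold change of Ccnd3 was more negative in CD8 T cells than in macrophages by 0.98 ± 0.18 (log2 difference −0.98, edgeR interaction, adjusted p = 0.00787). With cells that carry Ccr7 or Lef1 left out, Ccnd3 stood at a log2 fold change of −0.71 in CD8 T cells, −1.25 in CD4 T cells and −1.38 in Foxp3+ T cells and passed in none of the 3 (edgeR adjusted p = 0.143, 0.0738 and 0.435). Ccnd2, the other D-type cyclin of the list, stood at 181, 173 and 186 against 123, 106 and 99.5 CPM in CD8 T cells and fell by 0.76 ± 0.13 (edgeR adjusted p = 0.00605), but in CD4 T cells its fold change of −0.63 ± 0.26 did not pass, and in Foxp3+ T cells, NK cells and B cells its groups overlapped. The stress list was lower with corin, without overlap, in the 4 lineages in which Ccnd3 fell and in monocytes, and overlapped between the groups in the other 5. The part of the stress genes in the Ccnd3 result was not tested.

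**Figure D5:**
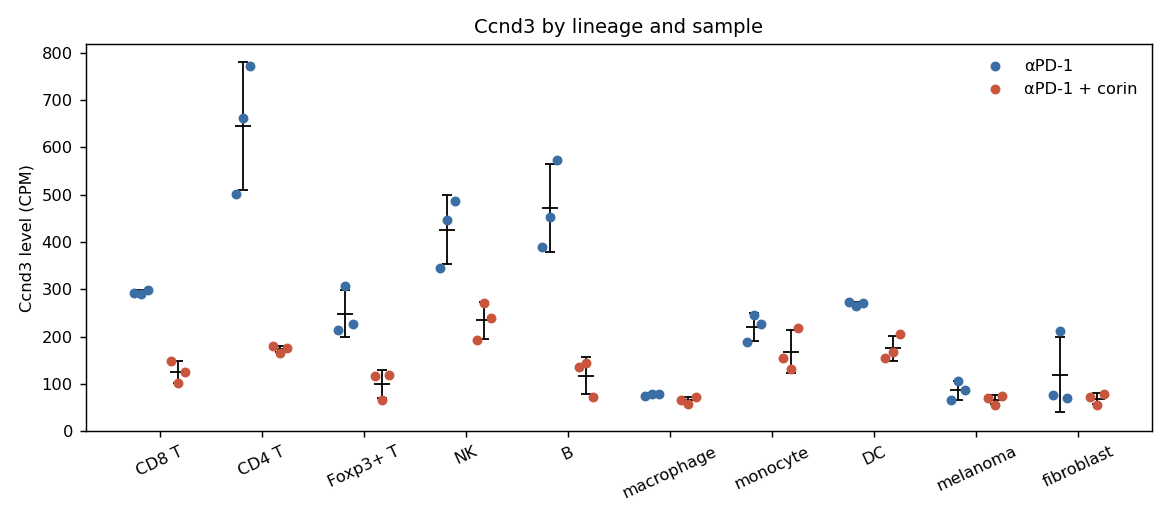
Level of Ccnd3 (TMM-scaled CPM, vertical axis) in each lineage, with 1 point per sample (blue αPD-1, red αPD-1 + corin) and bars for mean ± SD, n = 3. In CD8 T, CD4 T, Foxp3+ T, NK, B, macrophage and DC every αPD-1 + corin sample lay below every αPD-1 sample.

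A wider list of 116 further cell cycle genes was chosen by function, with earlier results of these samples known, and is not independent evidence. In CD8 T cells 35 of 39 further S genes had a positive fold change and 0 passed (10 at an unadjusted p under 0.05, beside 19.6% of all genes tested), and 44 of 46 tested further G2/M genes were positive and 4 rose, beside 0.943% of all genes that rose. Cks1b and Cks2, the small subunits of cyclin-dependent kinases, stood at 47.1 to 68.3 against 107 to 142 CPM and at 90.4 to 106 against 160.1 to 186 CPM and rose by 1.02 ± 0.17 and 0.74 ± 0.13 (edgeR adjusted p = 0.00644 and 0.0073). Hmgb2, a chromatin protein of dividing cells, and Tubb4b, a tubulin, rose by 0.63 ± 0.15 and 0.59 ± 0.13. Cks2 did not pass without αPD-1 sample 3, and Hmgb2 and Tubb4b did not without any 1 of the αPD-1 samples, nor without αPD-1 + corin sample 1 or 2 (Hmgb2) or 2 or 3 (Tubb4b). Among 14 tested genes that restrain the cycle 2 fell, beside 3.56% of all genes that fell: Klf2, a quiescence factor of T cells that is also in the naive list, from 333 to 448 down to 130.1 to 150.4 CPM (−1.46 ± 0.14, edgeR adjusted p = 0.000262), and Btg2, an antiproliferative immediate early gene, by 0.76 ± 0.17. Btg2 did not pass without αPD-1 sample 1 or 3 or αPD-1 + corin sample 2. None of these 6 calls was made with cells that carry a Ccr7 or Lef1 UMI left out, and with no upper limit on genes Klf2 alone of them passed. Over 19 alternatives, these 2 included, the weakest changes were 0.62 for Cks1b, 0.64 for Cks2, 0.34 for Hmgb2, 0.32 for Tubb4b, −0.87 for Klf2 and −0.44 for Btg2. None of 14 promoting regulators, such as Cdk2, Cdk4 and Myc, passed, and 3 of them had an unadjusted p under 0.05, a share near that 19.6%.

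In the other T cells fewer genes could be tested. In CD4 T cells 12 of the 50 genes had enough UMIs to test, and 1 passed, Ccnd3, in a lineage where 13.3% of all tested genes did. The summed G2/M genes stood at 1300.02, 252 and 1843 against 896, 1853 and 842 CPM and overlapped. Of the wider list Cdkn1a, the inhibitor p21, stood at 79.5, 19.1 and 78.9 against 239, 158 and 183 CPM in CD4 T cells and rose by 1.66 ± 0.40 (edgeR adjusted p = 0.0133), while Klf2 and Btg2 fell by 1.23 ± 0.26 and 0.80 ± 0.25. Btg2 did not pass with DESeq2, with the replicate block or without any 1 sample other than αPD-1 sample 3, and Cdkn1a did not without αPD-1 + corin sample 3. The naive T cell list stood at 1770.1 to 2513 against 483 to 677 CPM in CD4 T cells and 5 of its 6 genes fell, Klf2 among them, while the share of cells with a Ccr7 or Lef1 UMI was 58.6% to 68.5% against 11.9% to 32.4%. With those cells left out, none of the 3 genes passed. The weakest change in any alternative was 0.93 for Cdkn1a, −0.77 for Klf2 and −0.29 for Btg2.

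In Foxp3+ T cells, the regulatory T cells, 30 genes were tested, 29 had a negative fold change and 1 fell, Ccnd3, beside 0.274% of all genes tested in that lineage. The summed G2/M genes stood at 2349.6, 2986 and 2536 CPM with αPD-1 and at 417, 2282 and 773 CPM with αPD-1 + corin. The groups did not overlap, but the second αPD-1 + corin sample lay close to the αPD-1 samples and the other two far below, and these had 20 and 16 cells against 60. Mki67 stood at 332, 428 and 374 against 139, 324 and 157 CPM (−0.62 ± 0.27) and Top2a at 348, 391 and 432 against 69.5, 327 and 157 CPM (−0.72 ± 0.30), neither past the threshold (edgeR adjusted p = 0.627 for both). Ube2c stood at 187, 322 and 187 against 23.2, 186 and 13.1 CPM (−0.92 ± 0.44). Of the 14 tested G2/M genes all were negative and 9 had every αPD-1 + corin sample lowest, beside 6.34% of all genes tested. The filter on low counts can be met by the samples of 1 group alone, so genes high only with αPD-1 could enter the test. The counts of direction and overlap in these cells therefore describe the genes that entered and are no support for a fall. The share of Foxp3+ T cells with at least 2 G2/M genes after thinning did not show this: it was 18.0%, 15.4% and 29.7% against 10.0%, 31.7% and 12.5%, with overlap.

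The treatment difference itself was compared between lineages with an interaction term and the sample as a block. Between CD8 T and Foxp3+ T cells, 43 genes were tested and 2 had a more positive fold change in CD8 T cells, Pclaf by 1.70 ± 0.35 and Cenpa by 1.46 ± 0.30 (edgeR adjusted p = 0.0461 and 0.044), beside 0.165% of all genes tested. The median difference over the 43 genes was 0.99, beside 0.02 over all genes tested, and 24 had an unadjusted p under 0.05, beside 7.59%. In Foxp3+ T cells alone 30 genes had enough UMIs to test. The others of the 43 entered through CD8 T cells, so this median and this count are descriptions. Between CD8 T and CD4 T cells 0 of 42 genes passed and 1 had an unadjusted p under 0.05, beside 0.447% and 8.3% of all genes tested. In CD4 T cells alone 12 of the 50 genes had enough UMIs to test, so many of the 42 entered through CD8 T cells. At this depth the comparison cannot tell whether the pattern differs between these lineages. Between CD8 T and Foxp3+ T cells 0 genes passed without αPD-1 sample 2 or 3 or αPD-1 + corin sample 3, and 8 passed without the second αPD-1 + corin sample, beside 0.44% of all genes tested, with Cenpa not among them.

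NK cells resembled CD8 T cells in direction, from few cells (38 to 101 per sample). The summed G2/M genes stood at 212, 559 and 302 CPM with αPD-1 and at 1319.5, 1193 and 1012 CPM with αPD-1 + corin, a log2 ratio of 1.72 without overlap. Top2a stood at 18.2, 96.6 and 29.2 against 173, 161 and 155 CPM (1.5 ± 0.39, edgeR adjusted p = 0.0941) and Mki67 at 42.4, 113 and 87.6 against 164, 152 and 218 CPM (1.09 ± 0.33, edgeR adjusted p = 0.141). Stmn1 stood at 24.2, 139 and 107 against 385, 144 and 151 CPM (1.18 ± 0.43). None of these 3 overlapped between the groups and none passed: of 8 genes tested 0 passed with edgeR and 0 with DESeq2, and 4 had an unadjusted p under 0.05, beside 0.0779% and 13.3% of all genes tested with edgeR. After thinning 1.52%, 4.62% and 2.44% of NK cells carried at least 2 G2/M genes with αPD-1 and 11.1%, 5.0% and 5.15% with αPD-1 + corin, 16 cells in all, and the αPD-1 shares lie about the 2.20% of the B cell reference. Without thinning the shares overlapped, at 5.88%, 14.7% and 2.27% against 18.4%, 7.5% and 10.9%.

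In B cells the summed G2/M genes were lower with corin, at 296, 277 and 356 against 209, 121 and 72.4 CPM, without overlap, but the αPD-1 + corin values rest on 57, 49 and 16 cells. Mki67 stood at 36.1, 26.3 and 45.7 against 12.3, 24.2 and 0 CPM (−1.34 ± 0.80) and Top2a at 36.5, 23.8 and 41.1 against 12.3, 12.1 and 0 CPM (−1.82 ± 0.90), and neither passed. After thinning 2.76%, 1.47% and 2.38% of B cells in the αPD-1 samples carried at least 2 G2/M genes, and 0 of 113 cells did in the αPD-1 + corin samples pooled. That count allows a share of up to 2.65% for counting error alone, with the spread between samples not covered, and the shares were not compared. The sum of S genes was level (a log2 ratio of 0.03), and Cdt1, which licenses origins and had the highest fold change of the tested S genes, stood at 59.8, 47.0 and 53.4 against 98.5, 169 and 145 CPM (1.34 ± 0.34, edgeR adjusted p = 0.0565). Of 25 genes tested 1 fell, Ccnd3, beside 0.658% of all genes tested. Of the wider list Btg2 fell by 0.98 ± 0.23, but did not pass without any 1 of the αPD-1 samples or αPD-1 + corin sample 1 or 3.

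In macrophages, the largest lineage, the G2/M genes leaned the other way from CD8 T cells without passing the test gene by gene. All 26 had a negative fold change, with a median of −0.49, and 8 had every αPD-1 + corin sample lowest, beside 11.7% of all genes tested. None of the 50 genes passed with edgeR or with DESeq2, and 9 had an unadjusted p under 0.05 with edgeR, beside 0.294% and 17.8% of all genes tested. Cenpa stood at 54.7, 46.7 and 43.3 against 30.0, 27.7 and 35.2 CPM (−0.64 ± 0.15, edgeR adjusted p = 0.116), without overlap. Mki67 stood at 86.3, 103 and 64.7 against 50.8, 46.1 and 85.9 CPM (−0.49 ± 0.26) and Top2a at 53.9, 74.2 and 64.7 against 36.6, 32.4 and 67.4 CPM (−0.51 ± 0.27), in both with the third αPD-1 + corin sample inside the αPD-1 range. Leaving out that sample, 19 of the 50 genes passed, all lower, in a setting where 10.6% of all genes tested passed as lower. The summed G2/M genes stood at 636, 759 and 582 against 452, 343 and 625 CPM and overlapped. A cluster led by Ppbp and Ccl24, in which 4.25% of cells carried at least 2 G2/M genes without thinning, held 12, 5 and 25 macrophages with αPD-1 and 1221, 329 and 7 with αPD-1 + corin. Without this cluster the G2/M genes stood at 686, 817 and 624 against 549, 445 and 602 CPM and did not overlap. Taken singly, 1 of the 5 other macrophage clusters separated, the one led by Camk1d, Gphn and Il31ra, at 698, 832 and 741 against 616, 570.1 and 620.4 CPM, and the other four overlapped. That cluster held 43.8%, 43.8% and 43.3% of macrophages with αPD-1 and 8.88%, 22.2% and 51.3% with αPD-1 + corin, so that the third αPD-1 + corin sample lay above the αPD-1 samples and the other two below.

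The difference between CD8 T cells and macrophages could be tested with the same samples in both. Of the 50 genes 16 had a more positive fold change in CD8 T cells and 1, Ccnd3, a more negative one, beside 1.19% of all genes tested. Among them 12 of 26 were G2/M genes, such as Ccna2 at 1.57 ± 0.26, Cdk1 at 1.42 ± 0.25 and Cenpa at 1.34 ± 0.22, and 3 of 21 were S genes, Pclaf at 1.40 ± 0.23, Clspn at 1.40 ± 0.32 and Tyms at 1.14 ± 0.23. With CD8 T cells that carry a Ccr7 or Lef1 UMI left out, 0 of the 50 passed with edgeR and 26 had an unadjusted p under 0.05, beside 0.0423% and 6.41% of all genes tested. Over 9 alternatives, this one included, the lowest difference was 1.23 for Ccna2, 1.04 for Cdk1, 0.96 for Cenpa, 1.15 for Pclaf, 0.87 for Clspn and 0.85 for Tyms. Leaving out any 1 of the 3 αPD-1 samples or of the first 2 αPD-1 + corin samples left 5 to 8 calls, beside 0.439% to 0.818% of all genes tested. Leaving out the third αPD-1 + corin sample gave 34, beside 3.06%.

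In monocytes the cycling genes started from very low levels. Stmn1 stood at 7.00, 5.56 and 5.96 CPM with αPD-1 and at 33.1, 45.2 and 12.97 CPM with αPD-1 + corin and rose by 2.17 ± 0.44 (edgeR adjusted p = 0.0314). Birc5 stood at 4.37, 1.59 and 1.99 against 19.5, 38.5 and 8.92 CPM and rose by 2.89 ± 0.60 (edgeR adjusted p = 0.0349), from 64 UMIs in all. The groups did not overlap in either gene. These were the 2 of 19 tested genes that passed, beside 1.45% of all genes tested, and neither passed with DESeq2. The filter on low counts can be met by the samples of 1 group alone. Genes with more UMIs in the αPD-1 + corin samples, as these 2, could enter the test through that group, so the count of 2 of 19 is a description. Ube2c stood at 3.50, 7.14 and 2.65 against 20.4, 58.6 and 11.4 CPM (2.55 ± 0.61, edgeR adjusted p = 0.0589), and Mki67 at 23.6, 16.7 and 9.27 against 43.8, 109 and 21.9 CPM (1.69 ± 0.50), the latter with overlap. The summed G2/M genes stood at 178, 141 and 117 against 351, 729 and 173 CPM and overlapped. After thinning the shares of cells with at least 2 G2/M genes were 2.15%, 0.678% and 1.87% against 4.22%, 5.79% and 2.31%, of which the last lies near the 2.20% of B cells. Leaving out the third αPD-1 + corin sample, 16 of 29 tested genes passed, 15 of them higher, beside 6.91% of all genes tested, and leaving out any other sample 0 passed. Between macrophages and monocytes, Stmn1 differed in its fold change by −2.68 ± 0.50 (edgeR adjusted p = 0.0456), the 1 gene of 50 that passed beside 0.183% of all genes tested. All 26 G2/M genes had a more negative fold change in macrophages. Of these, 7 had enough UMIs to test in monocytes alone and the rest entered through macrophages, so this direction is a description. The Stmn1 difference did not pass without any 1 of the αPD-1 samples or αPD-1 + corin sample 1 or 2. Of the wider list Klf2 fell in monocytes by 0.67 ± 0.14, but did not pass with the replicate block, at either other clustering resolution or without any 1 sample other than αPD-1 + corin sample 3. Neutrophil markers in these monocytes summed to 128, 100.03 and 124 against 564, 586 and 289 CPM and C1q genes to 664, 656 and 362 against 1033, 1332 and 663 CPM, and their part in the result was not tested.

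DC, melanoma cells and fibroblasts had no cell cycle gene past the threshold with edgeR or with DESeq2. In DC 46 genes were tested and 5 had an unadjusted p under 0.05, beside 0.619% of all genes tested after adjustment and 12.4% before it. The S genes leaned lower (19 of 20 negative) and the G2/M genes higher (21 of 23 positive), and the summed G2/M genes stood at 552, 518 and 598 against 638, 509.9 and 1105 CPM, so that 1 αPD-1 + corin sample carried the difference. In melanoma cells 49 genes were tested and 1 had an unadjusted p under 0.05, beside 0.0% and 7.24% of all genes tested, and the summed G2/M genes stood at 1950.3, 1285 and 1361 against 1330.3, 1785 and 1377 CPM. In fibroblasts 15 genes were tested and 0 had an unadjusted p under 0.05, beside 2.48% and 23.2% of all genes tested, and the summed G2/M genes stood at 296, 703 and 172 against 438, 240.2 and 385 CPM. The upper limit of 4000 genes per cell bears most on these lineages: without it, 82.9% of the G2/M-positive melanoma cells, 57.6% of the fibroblasts, 26.3% of the DC and 14.3% of the CD8 T cells had more than 4000 genes. Without it 0 of these genes passed in melanoma cells and in fibroblasts, beside 0.0% and 0.421% of all genes tested, but in melanoma cells 49 of 50 tested genes were negative (median −0.28) and 35 had an unadjusted p under 0.05, beside 13.3% of all genes tested. In fibroblasts 45 of 49 were positive (median 0.39) and 13 had an unadjusted p under 0.05, beside 12.4%.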

How the data were processed

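Single-cell RNA-Seq libraries of CD45+ tumor cells, 3 per treatment, were deposited as UMI counts per gene and barcode. Per the labels and methods, the authors made these counts with Cell Ranger 8.0 on GRCm39, keeping barcodes called as cells. Cells outside 600 to 4000 genes, or above 10% mitochondrial UMIs, were dropped here, as were the barcodes with the highest Scrublet scores (scanpy 1.11.5), at 0.4% per 1000 barcodes, as doublets. Cells were clustered with Seurat 5.3.0 (sctransform 0.4.2, 20 components, resolution 0.8) without cell cycle genes, and clusters were named from markers. A mixed T and B cell cluster of 1231 cells and 1824 T and NK cluster cells without gating UMIs were left out. Counts were summed per sample and lineage and tested with edgeR 4.0.16 (R 4.3.3, filterByExpr, TMM, adjusted p threshold 0.05). The comparison between lineages used an interaction term with the sample as a block. The edgeR step was tested on simulated data: 187 of 200 4-fold changes were found among 9652 genes for CD8 T cells, with 15 false calls, and 193 of 200 among 11552 genes for macrophages, with 15. The cell cycle genes that rose in CD8 T cells changed by 0.57 to 0.85 on the log2 scale, which is less than 4-fold. The finding of changes of that size was not tested. Alternatives were DESeq2 1.42.0, other size factors and filters, other clustering, each sample left out, and T cells with a UMI of Ccr7 or Lef1 left out. A planned split of naive T cells is not reported here. Thinning drew 1000 UMIs per cell and left out cells with fewer. With αPD-1 and with αPD-1 + corin these were 108 and 9 B cells, 22 and 36 macrophages and 16 and 2 CD8 T cells.

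The genes, lists and rules were chosen with earlier results of these data known. Per lineage, the text names the 6 S and 6 G2/M genes with the highest mean CPM (from which those described were taken), Ccnd2, Ccnd3 and Stmn1, and genes past the threshold, and from the wider list up to 4 genes in each direction. In CD8 T cells Ccnb1, Ccne2 and Ccna2 were named outside that rule. These 3 genes, and Cdt1 and Cdk1, which met the rule, were named after their values were seen. Intervals and limits on shares cover counting error only. Promoter windows came from RefSeq (GRCm38.p6), a different build from that of the counts, and were matched by symbol.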

Additional observations from a re-analysis of the deposited data

Results flagged for a closer look

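The effect of corin differed between lineages, by an edgeR interaction test, for 2 genes between CD8 T and Foxp3+ T cells, for 17 between CD8 T cells and macrophages, and for 1 between macrophages and monocytes. Differences of log2 fold changes are given, with a positive value where the first lineage named was the higher.

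Between CD8 T and Foxp3+ T cells the differences were 1.46 for Cenpa and 1.70 for Pclaf. Between CD8 T cells and macrophages the S genes Clspn, Tyms and Pclaf differed by 1.40, 1.14 and 1.40. The kinase and cyclin genes Ccna2, Cdk1 and Plk1 differed by 1.57, 1.42 and 1.35. The centromere and passenger genes Cenpa, Cenpe, Cenpf and Cdca8 differed by 1.34, 1.19, 1.201 and 1.16. Ube2c and Cdca3 differed by 1.10 and 1.34, Kif11 by 1.23, Mki67 by 1.00 and Top2a by 1.09. Stmn1 differed by 1.06 and Ccnd3 by −0.98, the 1 gene whose fold change was the lower in CD8 T cells. Between macrophages and monocytes Stmn1 differed by −2.68, a call lost without any 1 of the αPD-1 samples or αPD-1 + corin sample 1 or 2. In CD8 T cells the share with a Ccr7 or Lef1 UMI moved with these values, as described above, and without such cells none of these genes passed in the comparisons of CD8 T cells. Over 9 alternatives, that one included, the lowest differences were 1.31 for Pclaf and 1.02 for Cenpa against Foxp3+ T cells. Against macrophages they ran from 0.64 (Mki67) to 1.23 (Ccna2) for the genes with a positive difference, and the weakest for Ccnd3 was −0.45.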

How the results depend on the processing

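Counts of genes past the threshold moved with the cells and filters used. With no filter on low counts they were 21 in CD8 T, 2 in NK, 5 in macrophage, 20 in monocyte and 3 in DC cells, beside 5.17%, 0.194%, 3.68%, 3.5% and 3.29% of all genes tested. With T cells that carry a Ccr7 or Lef1 UMI (Ccr7 or Lef1 cells) left out, a setting with fewer cells, they were 0 in CD8 T, 0 in CD4 T and 0 in Foxp3+ T cells, beside 0.0971%, 1.6% and 0.0%. With LogNormalize they were 2 in CD8 T, 0 in Foxp3+ T and 1 in monocyte cells, beside 1.87%, 0.222% and 1.83%. With no upper limit on genes they were 1 in CD8 T, 0 in Foxp3+ T and 3 in NK cells, beside 1.26%, 0.0764% and 1.87%. DESeq2 gave 8 in CD8 T (without Mcm3, Rrm1 and Kif11), 0 in Foxp3+ T, 2 in B and 0 in monocyte cells, beside 3.09%, 0.152%, 2.04% and 1.5%. Foxp3+ T cells had 0 with a mitochondrial limit of 5% or with mixed cells left out (beside 0.0638% and 0.318%), NK cells 1 with mixed cells left out (0.221%), and monocytes 1 at either other resolution, 0.4 or 1.2, or with mixed cells left out (1.22% to 1.85%). B cells had 2 with RLE size factors, either other resolution, cell cycle genes kept, no doublet removal or mixed cells left out (0.658% to 2.18%). Between CD8 T and Foxp3+ T cells the counts were 0 without Ccr7 or Lef1 cells, 7 with no filter and 0 with no upper limit, beside 0.0%, 0.209% and 0.0%. Between CD8 T cells and macrophages they were 0, 26 and 8, beside 0.0423%, 1.25% and 0.572%. Between macrophages and monocytes they were 23 with no filter and 3 with no upper limit, beside 1.08% and 0.14%. Where a setting does not itself leave out cells or genes, the cause was not tested.

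Leaving out each sample in turn gave 2 to 9 genes in CD8 T, 0 to 1 in Foxp3+ T, 0 to 1 in NK, 0 to 19 in macrophage, 0 to 16 in monocyte and 0 to 4 in DC cells. In this order, the shares of all genes tested were 1.42% to 4.36%, 0.0598% to 0.287%, 0.0% to 0.734%, 0.0% to 21.3%, 0.13% to 6.91% and 0.147% to 7.74%. The 4 of 45 in DC came without αPD-1 + corin sample 3, beside that 7.74%. Between lineages, leaving out samples gave 0 to 8 for CD8 T against Foxp3+ T, 0 to 1 for CD8 T against CD4 T, 5 to 34 for CD8 T against macrophage and 0 to 28 for macrophage against monocyte cells. In this order, the shares of all genes tested were 0.0% to 0.44%, 0.0939% to 0.509%, 0.439% to 3.06% and 0.0% to 5.17%. The 28 came without αPD-1 + corin sample 3, beside that 5.17%. For the comparisons between lineages and for shares of cells, leaving out samples was chosen after seeing the data, as was leaving out Ccr7 or Lef1 cells.

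With the replicate block, 4 genes passed in monocytes and 11 in CD8 T cells, 9 of them higher, beside 1.04% and 3.39% of all genes tested, with Mcm3, Rrm1 and Kif11 not among them. Samples with the same number correlated at −0.18 to 0.12, so the numbers were not taken as pairs.

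The log2 ratio of S sums in CD8 T cells was 0.17 without Ccr7 or Lef1 cells, and the ratio of G2/M sums was 0.30 with no upper limit, and in both cases the groups overlapped. In B cells the S ratio was 0.53 with LogNormalize and −0.32 with no upper limit, and the G2/M ratio −0.15 with LogNormalize.

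Differences in shares of positive cells, in percentage points, moved with the rule. Counting cells with at least 1 gene gave 12.0 (S, CD8 T), −13.1 (S, Foxp3+ T), 10.7 (G2/M, NK), 14.8 (S, B), −0.60 (G2/M, B), −6.54 (S, macrophage) and −1.54 (S, monocyte), and at least 3 genes gave −0.89 (G2/M, B). No thinning gave −14.8 (S, Foxp3+ T), −2.30 (S, B), −5.58 (G2/M, B), −8.64 (S, macrophage), −9.06 (G2/M, macrophage), −7.34 (S, DC), −3.39 (S, fibroblast) and −7.87 (G2/M, fibroblast). No upper limit gave 0.00074 (G2/M, CD4 T), −11.7 (S, Foxp3+ T), 8.39 (S, NK) and 0.77 (G2/M, B).

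Reversed fold changes were −0.16 for Mcm4 and −0.065 for Pcna in CD8 T cells without Ccr7 or Lef1 cells, and −0.00093 for Pcna in CD8 T cells and 0.14 for Ccnd3 in macrophages with LogNormalize. None of these passed the threshold in either setting. Depth limits which genes could be tested: of the 50 genes 8 were in NK, 12 in CD4 T, 15 in fibroblast, 19 in monocyte, 25 in B and 30 in Foxp3+ T cells.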
